A study of Arabidopsis thaliana with 24 samples.

Results

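The genes described are 10 Arabidopsis thaliana regulators of cell death and of the oxidative burst, chosen by locus: the metacaspases MC1, MC2, MC4, MC5 and MC8, the death regulators LSD1 and BI1, the NADPH oxidases RBOHD and RBOHF, and the kinase OXI1. All 10 were found among the 33602 loci of the count table, and all 10 passed the filter on low counts that left 20347 genes. RNA was sequenced from shoots of 3-week-old seedlings of the double mutant cat2shr (written cat2xshr in one label), cat2, mutated in the catalase gene CAT2, shr, mutated in SHORT-ROOT (SHR), and the wild type Col-0 (Columbia-0). Each genotype was sampled after 24 h of photorespiratory stress and at 0 h, with 3 libraries in each of the 8 groups. Per the labels, plants grew for 21 days at 21 °C on agar with 1% sucrose under 16 h of light and 8 h of dark. At the start of the stress the plates were sealed with 2 layers of Parafilm, and the light became continuous. Sealing, continuous light and the 24 h that passed therefore cannot be told apart. The alleles, the number of plants behind a library and whether replicates came from separate plates are not given in the labels, so the p-values speak of the spread among these libraries, which may be technical. Per its title, the study asked about cell death in cat2 plants with and without SHORT-ROOT when photorespiration is promoted.

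Photorespiration releases hydrogen peroxide in peroxisomes, and the catalase CAT2 is the main enzyme that removes it in leaves. Plants also make reactive oxygen on purpose: NADPH oxidases of the RBOH family in the plasma membrane pass electrons to oxygen outside the cell, and calcium, calcium-dependent kinases and receptor-associated kinases switch them on. Metacaspases are cysteine proteases that cleave after arginine or lysine. LSD1 and BI1 hold cell death back, and lsd1 mutants show spreading lesions.

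Total counts ran from 26.4 to 40.1 M per library, and levels are given as CPM, counts divided by the library's total, expressed per M after TMM scaling, which evens out differences in composition between libraries. CAT2 measured 24.4 to 32.5 CPM in cat2shr and cat2 at 24 h and 13.1 to 26.3 CPM in these genotypes at 0 h, against at least 126 CPM in every shr and Col-0 library. SHR measured 0.429 to 1.07 CPM in cat2shr and shr, against at least 4.41 CPM in every cat2 and Col-0 library. These levels go with the genotype labels. All 5 markers of green shoot tissue were detected. Their summed level was 5806 to 7904 CPM in cat2 at 24 h, the lowest group. It was 11765 to 16610 CPM in Col-0 at 24 h and 23758 to 24028 CPM in Col-0 at 0 h. The single markers did not move alike: cat2 differed from Col-0 at 24 h by log2 -2.99 for RBCS1B and by log2 -0.04 for GLK1. Markers of root summed to at most 6.15 CPM in any library, and markers of floral organs to at most 9.15 CPM. Markers of xylem summed to 44.1 to 58.8 CPM in cat2 at 24 h and to 71.0 to 103 CPM in the other groups. The part of these shifts in the results below was not tested, and in whole shoots a change in the share of a cell type cannot be told apart from a change of RNA per cell. Replicate 1 of unstressed shr lay away from replicates 2 and 3 for OXI1, LSD1 and MC8, and values without it are given beside their results in shr.

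Across the 8 groups, stressed cat2 shoots had the highest mean level of 6 of the 10 genes (MC1, MC4, MC8, LSD1, BI1 and OXI1) and the lowest of RBOHF. Unstressed Col-0 had the lowest mean of 6 genes. The shares of all genes tested with their highest or lowest mean in these groups were not computed, so these counts describe the 10 genes only. A gene was called changed at a Benjamini-Hochberg adjusted p under 0.05 over all genes tested, from the quasi-likelihood test of edgeR, and every adjusted p below comes from that test. A ± after a log2 value is its standard error (SE). Under stress, 3 of the 10 genes rose and 1 fell in cat2shr, where 64.4% of all genes tested were called, 32.7% higher and 31.7% lower. In cat2, 7 rose and 1 fell, against 75% of all genes, 38.7% higher and 36.3% lower. In shr, 0 rose and 4 fell, against 41.3% of all genes, 20.4% higher and 20.9% lower. In Col-0, 5 rose and 1 fell, against 59.3% of all genes, 29.7% higher and 29.6% lower. The total of called genes among the 10 stood near those shares or below them, so what follows concerns which genes moved and how far. The median absolute log2 change of the 10 genes under stress was 0.59 in cat2shr, 1.13 in cat2, 0.41 in shr and 0.79 in Col-0, against 0.49, 0.70, 0.29 and 0.43 over all genes tested.

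**Figure D1:**
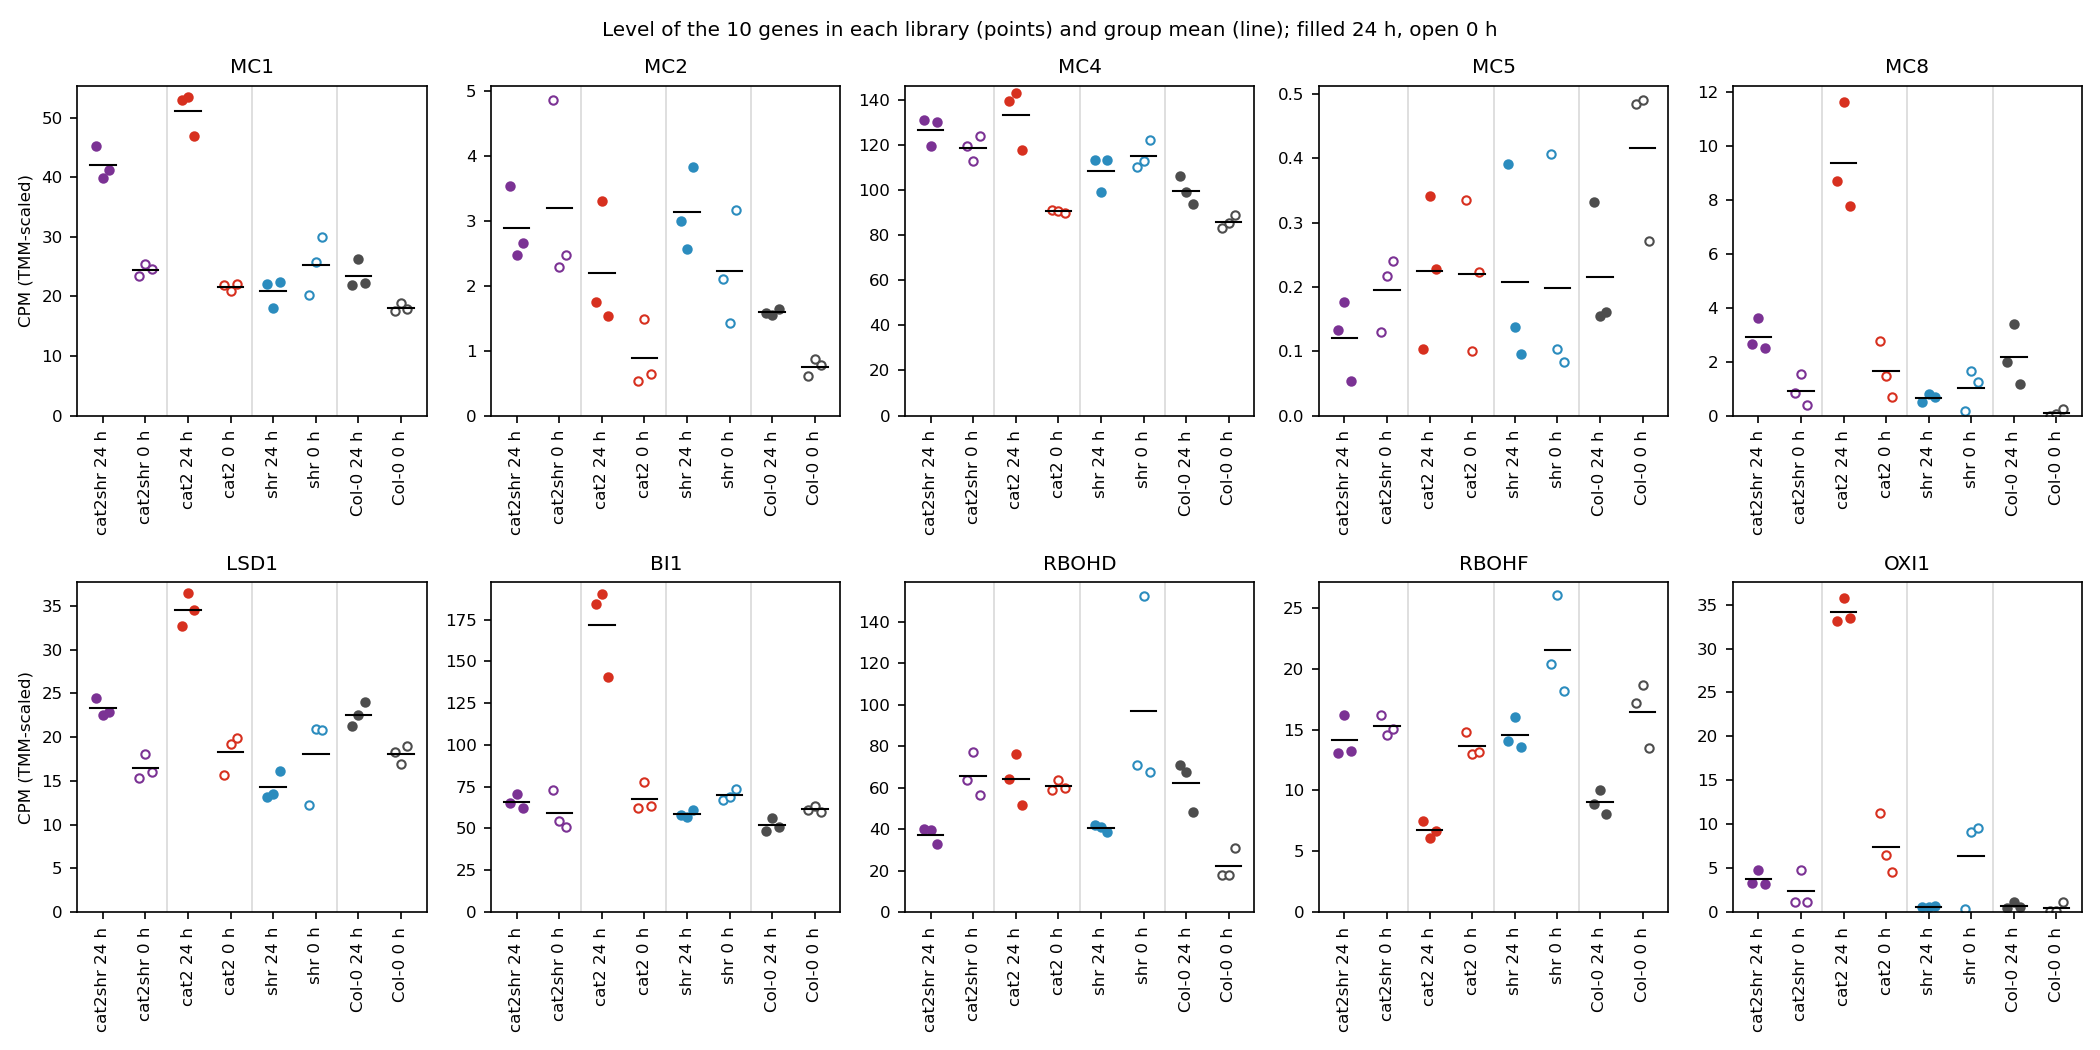
Level of each of the 10 genes in CPM (vertical axes, each from 0, TMM-scaled) in every library, by genotype and time. Points are libraries, filled for 24 h and open for 0 h, and lines are group means over 3 libraries. BI1, MC8, LSD1 and OXI1 stand highest in stressed cat2, where no library overlaps another group, RBOHF stands lowest there, and MC5 stays under 0.5 CPM throughout.

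RBOHD (AT5G47910), the oxidase behind most of the apoplastic burst in immunity, had unstressed levels in all 3 mutants above those of the wild type, and its response to stress differed between genotypes. It measured 39.9, 39.3 and 32.7 CPM in cat2shr at 24 h and 63.4, 77.0 and 56.6 CPM at 0 h. The cat2 libraries held 64.0, 76.3 and 51.8 CPM at 24 h and 59.0, 63.6 and 59.9 CPM at 0 h. The shr libraries held 41.8, 41.1 and 38.4 CPM at 24 h and 71.0, 152 and 67.4 CPM at 0 h. Col-0 libraries held 70.8, 67.4 and 48.2 CPM at 24 h and 17.8, 18.0 and 30.9 CPM at 0 h. Every mutant library at 0 h thus lay above every Col-0 library at 0 h (cat2shr against Col-0 was not tested), and both genotypes without SHR lay below their own 0 h libraries at 24 h.

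At 0 h RBOHD was 4.37-fold higher in shr than in Col-0 (log2 2.13 ± 0.28, adjusted p = 9.62e-06) and 2.74-fold higher in cat2 than in Col-0 (log2 1.46 ± 0.27, adjusted p = 0.00104). Between cat2shr and cat2 at 0 h it differed by log2 0.11, with a 95% interval from -0.40 to 0.62. Stress raised it in Col-0 (log2 1.49 ± 0.27, adjusted p = 0.00013) and lowered it in shr (log2 -1.26 ± 0.27, adjusted p = 0.00108) and in cat2shr (log2 -0.82 ± 0.26, adjusted p = 0.0117). In cat2 the change under stress was log2 0.07, with an interval from -0.44 to 0.59. The responses themselves differed, by log2 -2.75 for shr minus Col-0 (SE 0.38, adjusted p = 9.02e-05) and by log2 -1.41 for cat2 minus Col-0 (SE 0.38, adjusted p = 0.00622). At 24 h it was lower in cat2shr than in cat2 (log2 -0.78 ± 0.26, adjusted p = 0.0182). Without shr 0 h replicate 2, the library with 152 CPM, the shr response was log2 -0.75 (adjusted p = 0.00837), shr against Col-0 at 0 h was log2 1.69 and shr minus Col-0 was log2 -2.29. The call between cat2shr and cat2 at 24 h was lost without cat2 24 h replicate 2 (log2 -0.63, adjusted p = 0.0827) or cat2shr 24 h replicate 3 (log2 -0.66, adjusted p = 0.0813).

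RBOHF (AT1G64060), the oxidase that acts with RBOHD in defence and stomatal closure, fell under stress in 3 of the 4 genotypes and was lowest in stressed cat2. Its libraries measured 13.1, 16.2 and 13.3 CPM in cat2shr at 24 h and 16.2, 14.6 and 15.1 CPM at 0 h. Those of cat2 measured 7.51, 6.08 and 6.64 CPM at 24 h and 14.8, 13 and 13.1 CPM at 0 h. The shr libraries measured 14.1, 16.1 and 13.6 CPM at 24 h and 20.4, 26.1 and 18.2 CPM at 0 h, and those of Col-0 measured 8.92, 10.07 and 8.07 CPM at 24 h and 17.2, 18.7 and 13.5 CPM at 0 h. In cat2, shr and Col-0 no 24 h library overlapped a 0 h library, whereas the times overlapped in cat2shr.

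RBOHF fell under stress in cat2 (log2 -1.02 ± 0.14, adjusted p = 1.86e-06), shr (log2 -0.57 ± 0.13, adjusted p = 0.00237) and Col-0 (log2 -0.87 ± 0.14, adjusted p = 2.31e-05). In cat2shr its 24 h over 0 h value was log2 -0.11, with an interval from -0.37 to 0.16, and this response differed from that of cat2 (log2 0.91 ± 0.19, adjusted p = 0.00159). At 24 h RBOHF was 2.1-fold higher in cat2shr than in cat2 (log2 1.07 ± 0.14, adjusted p = 2.58e-06) and 1.62-fold higher in shr than in Col-0 (log2 0.69 ± 0.14, adjusted p = 0.000331). It was lower in cat2 than in wild-type shoots at 24 h (log2 -0.42 ± 0.14, adjusted p = 0.0147), a call lost without cat2 24 h replicate 2 (adjusted p = 0.0671). It was also higher in shr than in wild-type shoots at 0 h (log2 0.39 ± 0.13, adjusted p = 0.0231), which was lost without shr 0 h replicate 2 (log2 0.27, adjusted p = 0.11) or Col-0 0 h replicate 3 (log2 0.31, adjusted p = 0.08), and in a fit on these groups alone (adjusted p = 0.0861).

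Of the 8 other RBOH genes, 3 passed the filter, and RBOHC (AT5G51060), the oxidase known for root hair growth, stood out among them. It measured 58.8, 89.6 and 69.1 CPM in cat2shr at 24 h, against 1.59, 14.3 and 2.64 CPM at 0 h. The cat2 libraries held 6.68, 5.88 and 4.45 CPM at 24 h and at most 0.202 CPM at 0 h. In shr it measured at most 0.506 CPM at 24 h and 0.475, 17.2 and 4.88 CPM at 0 h, and in Col-0 it reached 1.20 CPM in 1 library at 24 h and 0.129 CPM at 0 h. So the stressed double mutant lay far above all other groups, and shr and cat2shr at 0 h were uneven.

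RBOHC rose under stress in cat2shr (log2 3.57 ± 0.78, adjusted p = 0.000667) and cat2 (log2 4.97 ± 1.23, adjusted p = 0.0014). The first was log2 5.08 without cat2shr 0 h replicate 2. It fell in shr (log2 -4.30 ± 1.06, adjusted p = 0.00353), where the change was log2 -2.82 without shr 0 h replicate 2. At 24 h it was 12.8-fold higher in cat2shr than in cat2 (log2 3.68 ± 0.79, adjusted p = 0.00071). The 6 root markers summed to 0.483 to 2.62 CPM in cat2shr at 24 h, with 0 of them over 1 CPM in the mean. In shr at 0 h the root markers summed to 0.338 to 6.15 CPM. Most of this was BGLU22, with a mean of 2.54 CPM in a mean sum of 2.95 CPM. Every other root marker had a mean of at most 0.107 CPM there. CASP1 and CASP2 lay below their unstressed Col-0 means, and RHD6, COBL9 and EXPA7 above theirs. In cat2shr at 0 h the sum was 0.0362 to 2.92 CPM. It was lowest in replicate 2, the library of that group with the most RBOHC. The part of root tissue in the level of RBOHC was not tested.

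**Figure D2:**
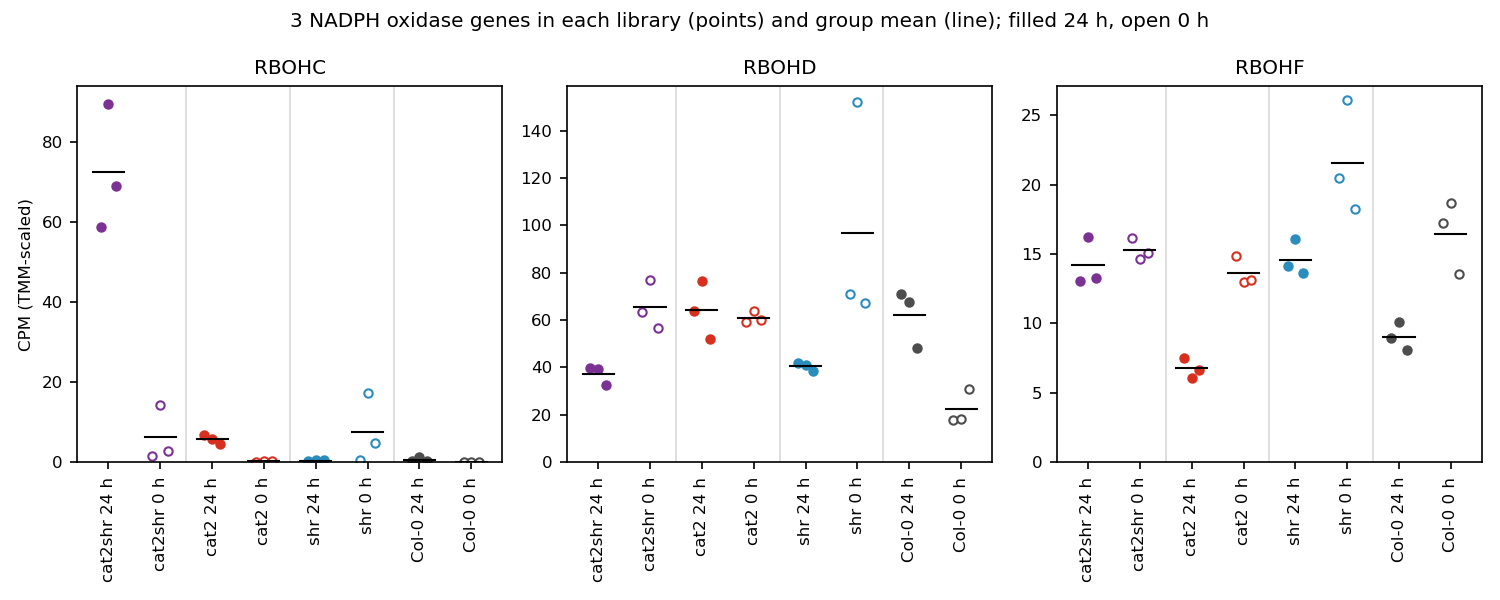
Level in CPM (vertical axes from 0) of the NADPH oxidase genes RBOHC, RBOHD and RBOHF in every library, by genotype and time, with points for libraries (filled 24 h, open 0 h) and lines for group means. RBOHC reaches 58.8 to 89.6 CPM in stressed cat2shr, while RBOHD is lowest in unstressed Col-0 and RBOHF in stressed cat2.

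OXI1 (AT3G25250, AGC2-1 in RefSeq), a kinase induced by hydrogen peroxide that acts upstream of the mitogen-activated kinases MPK3 and MPK6, had the largest fold of the 10 genes between cat2 and Col-0 at 24 h. It measured 3.28, 4.76 and 3.24 CPM in cat2shr at 24 h and 1.17, 4.78 and 1.13 CPM at 0 h. The cat2 libraries held 33.2, 35.7 and 33.5 CPM at 24 h and 11.2, 6.54 and 4.57 CPM at 0 h. It measured 0.521, 0.617 and 0.728 CPM in shr at 24 h and 0.306, 9.08 and 9.62 CPM at 0 h, and 0.406, 1.12 and 0.522 CPM in Col-0 at 24 h and 0.0968, 0.0701 and 1.16 CPM at 0 h. The stressed cat2 libraries lay above all others, and 2 of the 3 unstressed shr libraries reached the range of unstressed cat2.

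At 24 h OXI1 was 49.8-fold higher in cat2 than in Col-0 (log2 5.64 ± 0.90, adjusted p = 2.75e-05) and 9.08-fold lower in cat2shr than in cat2 (log2 -3.18 ± 0.73, adjusted p = 0.00125). At 0 h it was already higher in cat2 than in Col-0 (log2 4.14 ± 0.95, adjusted p = 0.00487), and higher in shr than in Col-0 (log2 3.93 ± 0.95, adjusted p = 0.00289). Without Col-0 0 h replicate 3, the library with 1.16 CPM, these values were log2 6.44 and 6.23. Without shr 0 h replicate 1 the shr difference was log2 4.52 (adjusted p = 6.55e-05), and in a fit on these groups alone it was not called (adjusted p = 0.0867). Stress raised OXI1 in cat2 (log2 2.20 ± 0.69, adjusted p = 0.00826) and lowered it in shr (log2 -3.35 ± 0.88, adjusted p = 0.0056; 0.0814 in a fit on the shr groups alone). The response of cat2shr, log2 0.68 with an interval from -0.81 to 2.18, lay above that of shr (difference log2 4.04 ± 1.17, adjusted p = 0.013). Without cat2shr 0 h replicate 2 that difference was log2 5.02. Without shr 0 h replicate 1 it was log2 4.54, and the shr response was log2 -3.88. The response of shr minus that of Col-0 was log2 -4.06 (adjusted p = 0.0583), and without that library it was log2 -4.63 and called (adjusted p = 0.00565). The difference between the responses of cat2shr and cat2 was log2 -1.51 (SE 1.02, adjusted p = 0.282). In Col-0 the OXI1 response was log2 0.70 and was not called (adjusted p = 0.642). The response of cat2 was not called different from it either (log2 1.496, adjusted p = 0.444). Without Col-0 0 h replicate 3 the value of cat2 minus Col-0 was log2 -0.88.

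MC1 (AT1G02170), a metacaspase that promotes the hypersensitive cell death of immunity and is held back by LSD1, was highest in both stressed cat2 genotypes. It measured 45.3, 39.9 and 41.3 CPM in cat2shr at 24 h and 23.4, 25.4 and 24.6 CPM at 0 h. The cat2 libraries held 53.0, 53.6 and 46.9 CPM at 24 h and 22.0, 21.0 and 22.0 CPM at 0 h. In shr it measured 22.1, 18.1 and 22.4 CPM at 24 h and 20.2, 25.8 and 30.1 CPM at 0 h, and in Col-0 21.9, 26.3 and 22.3 CPM at 24 h and 17.6, 18.9 and 17.9 CPM at 0 h. The ranges of stressed cat2 and stressed cat2shr did not overlap each other or any other group.

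MC1 rose under stress in cat2 (log2 1.24 ± 0.11, adjusted p = 5.02e-09), cat2shr (log2 0.78 ± 0.11, adjusted p = 4.29e-06) and Col-0 (log2 0.38 ± 0.11, adjusted p = 0.00737). In shr it changed by log2 -0.28 (SE 0.11, adjusted p = 0.0478), a call that held in 1 of 6 fits that left out 1 library and in 2 of 8 other alternatives. The call remained when replicate 1 of shr at 0 h was left out, and was lost without shr 0 h replicate 2 (log2 -0.25, adjusted p = 0.133) or replicate 3 (log2 -0.12, adjusted p = 0.403), and without shr 24 h replicates 1, 2 or 3 (log2 -0.32, -0.19 and -0.33). The response of cat2 exceeded that of Col-0 (log2 0.86 ± 0.16, adjusted p = 0.000251), and that of cat2shr exceeded that of shr (log2 1.07 ± 0.16, adjusted p = 9e-05). At 24 h MC1 was 2.18-fold higher in cat2 than in Col-0 (log2 1.12 ± 0.11, adjusted p = 4.41e-08), and at 0 h 1.4-fold higher in shr than in Col-0 (log2 0.49 ± 0.11, adjusted p = 0.00165). It was lower in cat2shr than in cat2 at 24 h (log2 -0.28 ± 0.11, adjusted p = 0.0361), which was lost when cat2 24 h replicates 1 or 2 (log2 -0.25 and -0.24) or cat2shr 24 h replicates 2 or 3 (log2 -0.20 and -0.24) were left out.

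MC8 (AT1G16420), a metacaspase known to be induced by ultraviolet light and hydrogen peroxide, was nearly silent in unstressed Col-0. It measured 2.65, 3.62 and 2.49 CPM in cat2shr at 24 h and 0.843, 1.56 and 0.378 CPM at 0 h. The cat2 libraries held 8.71, 11.6 and 7.78 CPM at 24 h and 2.75, 1.48 and 0.672 CPM at 0 h. In shr it measured 0.521, 0.789 and 0.696 CPM at 24 h and 0.170, 1.64 and 1.24 CPM at 0 h, and in Col-0 1.99, 3.41 and 1.16 CPM at 24 h and 0, 0.0701 and 0.233 CPM at 0 h. The unstressed Col-0 libraries held 0, 2 and 6 counts, and the count of 0 allows a level of up to 0.0968 CPM (3 counts, counting error only). Stressed cat2 lay above every other group.

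MC8 rose under stress in Col-0 (log2 4.48 ± 0.87, adjusted p = 0.000226), in cat2 (log2 2.52 ± 0.55, adjusted p = 0.000416) and in cat2shr (log2 1.66 ± 0.59, adjusted p = 0.0195). In shr its 24 h over 0 h value was log2 -0.64, with an interval from -1.92 to 0.63, and the responses of shr and Col-0 differed (log2 -5.12 ± 1.12, adjusted p = 0.00296). At 24 h MC8 was 4.27-fold higher in cat2 than in Col-0 (adjusted p = 0.00233) and 3.21-fold lower in cat2shr than in cat2 (log2 -1.68 ± 0.52, adjusted p = 0.0102). At 0 h it was higher in cat2 than in Col-0 (log2 4.05 ± 0.89, adjusted p = 0.0034) and in shr than in Col-0 (log2 3.41 ± 0.93, adjusted p = 0.00598). Folds against unstressed Col-0 rest on 8 counts in all: without its replicate 3 the Col-0 response was log2 5.90 and the differences of cat2 and shr at 0 h were log2 5.48 and 4.84, and the difference between the responses of shr and Col-0 was log2 -6.53. Without shr 0 h replicate 1 the shr response was log2 -1.09 (adjusted p = 0.156), shr against Col-0 at 0 h was log2 3.92 and shr minus Col-0 was log2 -5.61. The rise in cat2shr was lost without cat2shr 0 h replicates 1 or 3 (adjusted p = 0.0607 and 0.0941) or cat2shr 24 h replicate 2 (adjusted p = 0.0657). MC8 was also called lower in shr than in wild-type shoots at 24 h (log2 -1.71 ± 0.63, adjusted p = 0.0291), and this was lost without Col-0 24 h replicate 2 (log2 -1.22, adjusted p = 0.156) or any of the 3 shr 24 h libraries (adjusted p from 0.0542 to 0.0934).

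MC4 (AT1G79340), a wound-activated metacaspase that releases the Pep1 signal peptide, was the most abundant of the 10 genes per length of exon, at 61.3 CPM per kb on average over all libraries. Its group means lay within a narrow range, 127 ± 6.46 CPM in cat2shr at 24 h and 119 ± 5.62 at 0 h, 133 ± 13.7 and 90.5 ± 0.51 CPM in cat2, 109 ± 8.26 and 115 ± 6.19 CPM in shr, and 99.5 ± 6.33 and 85.8 ± 2.73 CPM in Col-0 (24 h, then 0 h, SD, n = 3). It rose under stress in cat2 (log2 0.56 ± 0.07, adjusted p = 1.08e-06) and Col-0 (log2 0.21 ± 0.07, adjusted p = 0.0174). Both genotypes without SHR already lay above their counterparts with SHR at 0 h, cat2shr above cat2 (log2 0.39 ± 0.07, adjusted p = 0.000475) and shr above Col-0 (log2 0.42 ± 0.07, adjusted p = 0.000145).

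MC2 (AT4G25110), which holds cell death back in opposition to MC1, was higher without SHR at 0 h by a larger factor and on few counts. It measured 3.55, 2.47 and 2.65 CPM in cat2shr at 24 h and 4.86, 2.28 and 2.47 CPM at 0 h, against 1.76, 3.31 and 1.54 CPM in cat2 at 24 h and 0.537, 1.48 and 0.640 CPM at 0 h. In shr it measured 3.00, 2.57 and 3.83 CPM at 24 h and 2.11, 1.43 and 3.17 CPM at 0 h, against 1.59, 1.55 and 1.65 CPM in Col-0 at 24 h and 0.613, 0.876 and 0.775 CPM at 0 h. At 0 h every cat2shr library lay above every cat2 library, and every shr library above every Col-0 library. It was 3.63-fold higher in cat2shr than in cat2 (log2 1.86 ± 0.39, adjusted p = 0.00118) and 2.96-fold higher in shr than in Col-0 (log2 1.56 ± 0.40, adjusted p = 0.00394). Without cat2 0 h replicate 2 the first was log2 2.45.

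Stress raised MC2 in cat2 (log2 1.31 ± 0.40, adjusted p = 0.00565), a call lost without cat2 24 h replicate 2 (log2 0.89, adjusted p = 0.0576). It also raised MC2 in Col-0 (log2 1.08 ± 0.42, adjusted p = 0.0333), and this was lost in 4 of 6 fits without 1 library, Col-0 0 h replicates 1 and 3 and Col-0 24 h replicates 1 and 3 (adjusted p from 0.0537 to 0.0909). At 24 h MC2 was higher in shr than in Col-0 (log2 0.98 ± 0.37, adjusted p = 0.0332). That call held in 1 of 6 such fits, the one without shr 24 h replicate 2, and the adjusted p was 0.0517 to 0.11 in the other 5. MC5 (AT1G79330) held 2 to 15 counts in every library, 0.0536 to 0.491 CPM, and was called in 0 of 15 comparisons. An RNA gene annotated on its opposite strand covers 1224 bases of its exons, so its few reads would be uncertain if counting ignored strand.

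**Figure D3:**
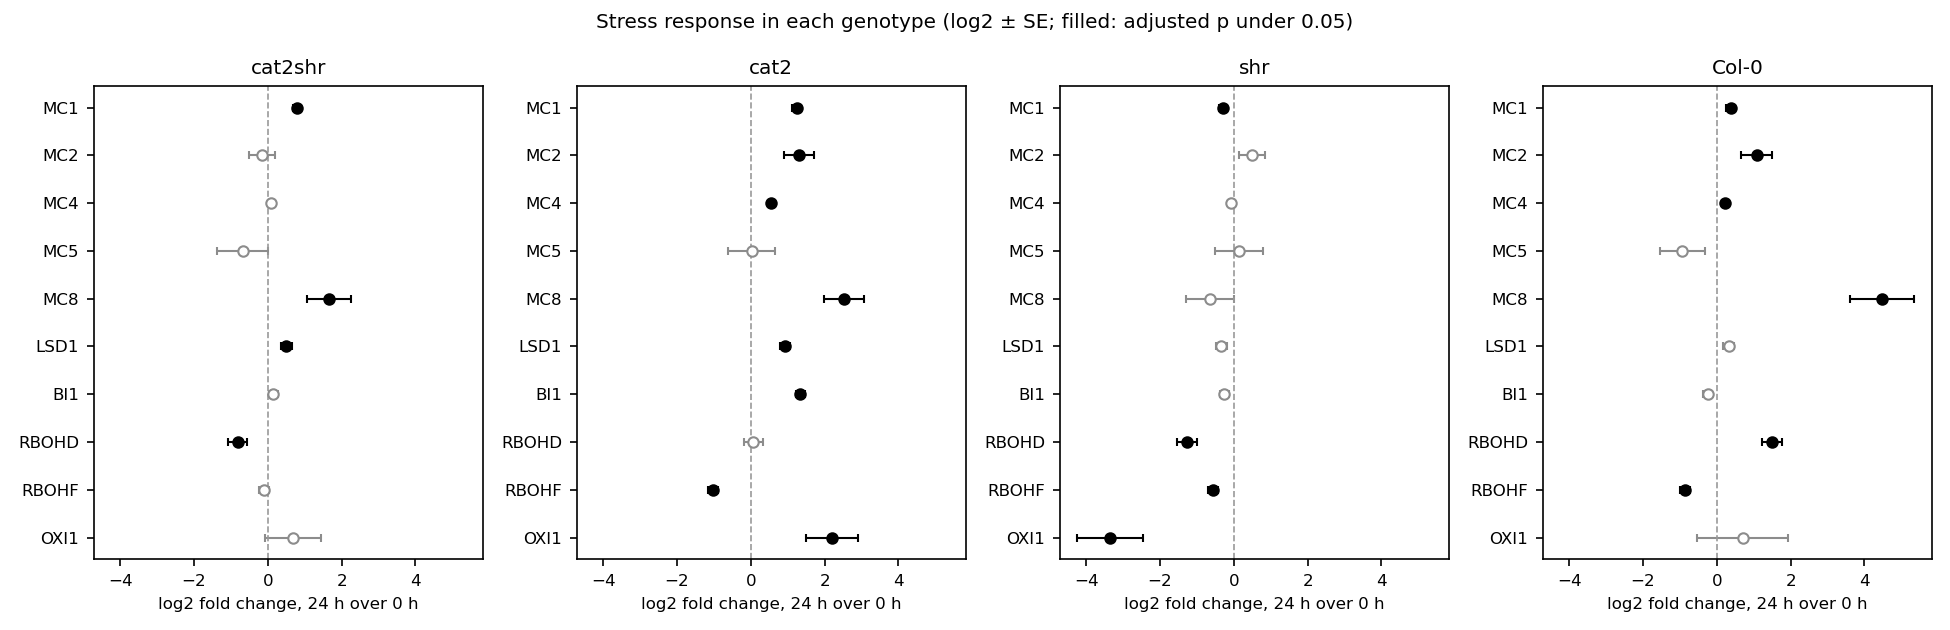
Log2 fold change of 24 h over 0 h (horizontal axis, bars are SE) for the 10 genes in cat2shr, cat2, shr and Col-0, from the edgeR fit. Filled points have an adjusted p under 0.05: 4 in cat2shr, 8 in cat2, 4 in shr (all below 0) and 6 in Col-0.

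LSD1 (AT4G20380), a zinc finger protein that keeps superoxide-driven cell death from spreading, rose under stress in cat2 and cat2shr. It measured 24.5, 22.5 and 22.9 CPM in cat2shr at 24 h and 15.3, 18.1 and 16.0 CPM at 0 h, and 32.8, 36.5 and 34.5 CPM in cat2 at 24 h and 15.7, 19.2 and 19.9 CPM at 0 h. It measured 13.2, 13.5 and 16.2 CPM in shr at 24 h and 12.3, 21.0 and 20.8 CPM at 0 h, and 21.2, 22.5 and 24.1 CPM in Col-0 at 24 h and 18.3, 16.9 and 19.0 CPM at 0 h. The unstressed groups overlapped one another, whereas at 24 h stressed cat2 lay highest and stressed shr lowest.

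LSD1 rose by log2 0.92 in cat2 (SE 0.14, adjusted p = 8.37e-06) and by log2 0.50 in cat2shr (SE 0.14, adjusted p = 0.0048). In Col-0 the change was log2 0.32 (SE 0.14, adjusted p = 0.062) and in shr log2 -0.34 (SE 0.15, adjusted p = 0.0666). Without shr 0 h replicate 1 the shr change was log2 -0.53 and was called (adjusted p = 0.000811). At 24 h LSD1 was higher in cat2 than in Col-0 (log2 0.61 ± 0.14, adjusted p = 0.00089), lower in cat2shr than in cat2 (log2 -0.57 ± 0.14, adjusted p = 0.00205) and lower in shr than in Col-0 (log2 -0.66 ± 0.15, adjusted p = 0.000774). At 0 h it differed by at most log2 0.15 in each of the 3 genotype comparisons, with intervals inside -0.43 to 0.30. Without shr 0 h replicate 1, which held 12.3 CPM, the difference of shr from Col-0 was log2 0.26 (adjusted p = 0.0579). A gene on the same strand overlaps 154 bases of its exons.

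BI1 (AT5G47120), an endoplasmic reticulum membrane protein that suppresses cell death, was called changed under stress in cat2 and in none of the other 3 genotypes with all libraries in the fit, though a small rise in cat2shr was called without 1 library, below. It measured 184, 190.1 and 141 CPM in stressed cat2, against 62.2, 77.9 and 63.2 CPM in unstressed cat2. In stressed cat2shr it measured 65.2, 70.7 and 62.1 CPM, against 73.2, 54.5 and 50.9 CPM in unstressed cat2shr. The shr libraries measured 56.7 to 61.3 CPM at 24 h and 66.9 to 73.4 CPM at 0 h, and those of Col-0 48.4 to 56.5 CPM at 24 h and 59.7 to 63.5 CPM at 0 h. Apart from stressed cat2, all 21 libraries lay between 48.4 and 77.9 CPM.

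BI1 rose by log2 1.34 in cat2 (SE 0.12, adjusted p = 6.28e-09), against log2 0.15 in cat2shr (SE 0.12, adjusted p = 0.297), log2 -0.25 in shr (SE 0.12, adjusted p = 0.104) and log2 -0.24 in Col-0 (SE 0.12, adjusted p = 0.0979). Without cat2shr 0 h replicate 1 the cat2shr change was log2 0.30 and was called (adjusted p = 0.0283). The cat2 response exceeded that of Col-0 by log2 1.58 (SE 0.17, adjusted p = 9.75e-07), and the cat2shr response minus the cat2 response was log2 -1.19 (SE 0.17, adjusted p = 4.23e-05). The effect of losing SHR on the response depended on CAT2, in a three-way interaction of log2 -1.18 (SE 0.24, adjusted p = 0.00325). At 24 h BI1 was 3.30-fold higher in cat2 than in Col-0 (adjusted p = 5.67e-10) and 2.60-fold lower in cat2shr than in cat2 (log2 -1.38 ± 0.12, adjusted p = 1.72e-08).

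The promoters of OXI1, BI1 and MC8 are shown because, of the 10 genes, these 3 had the largest ratio of their mean in stressed cat2 to the next highest group. Each sequence is the 250 bases before the annotated gene start, read 5′ to 3′ on the strand of the gene from RefSeq's TAIR10.1 assembly, whose nuclear chromosomes are those of TAIR10. Capitals mark matches, on either strand, to 4 short motifs: TTGAC (the core bound by WRKY factors), TGACG (bound by TGA factors), GAANNTTC (part of the heat shock element) and CACGTG (the G-box). They lie at chr3:9195084-9195333 (plus strand) for OXI1, chr5:19135702-19135951 (plus strand) for BI1 and chr1:5614021-5614270 (minus strand) for MC8.
OXI1: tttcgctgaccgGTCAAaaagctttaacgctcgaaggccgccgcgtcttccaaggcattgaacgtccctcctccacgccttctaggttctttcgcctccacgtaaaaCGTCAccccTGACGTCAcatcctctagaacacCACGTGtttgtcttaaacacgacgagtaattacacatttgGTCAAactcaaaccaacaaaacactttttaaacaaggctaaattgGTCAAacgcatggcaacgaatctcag
BI1: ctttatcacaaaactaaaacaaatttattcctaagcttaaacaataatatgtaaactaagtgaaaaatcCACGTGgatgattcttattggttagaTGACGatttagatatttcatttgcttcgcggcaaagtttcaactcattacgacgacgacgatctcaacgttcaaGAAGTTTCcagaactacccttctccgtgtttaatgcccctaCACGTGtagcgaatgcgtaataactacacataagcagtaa
MC8: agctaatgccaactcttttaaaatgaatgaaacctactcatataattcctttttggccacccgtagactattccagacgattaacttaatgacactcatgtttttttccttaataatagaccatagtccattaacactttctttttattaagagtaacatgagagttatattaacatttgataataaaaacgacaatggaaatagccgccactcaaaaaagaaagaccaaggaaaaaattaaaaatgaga

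The OXI1 promoter held 3 matches to TTGAC, 3 to TGACG and 1 to CACGTG, and 2 of its TGACG matches overlap each other on opposite strands. The BI1 promoter held 1 match to TGACG, 1 to GAANNTTC and 2 to CACGTG, and the MC8 promoter held 0 matches. Over all 10 genes, TTGAC was present in 4 promoters, TGACG in 2, GAANNTTC in 2 and CACGTG in 2. Among 32834 promoters of the same length the shares were 44.5%, 18.2%, 9.29% and 5.83%. The motifs were chosen with the expression values known, and a match is a description of the sequence only.

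Between genotypes at 24 h, 1 of the 10 genes was higher and 6 lower in cat2shr than in cat2, where 55.1% of all genes were called, 27% higher and 28.1% lower. At the same time 6 were higher and 1 lower in cat2 than in Col-0 (64.1% of all genes, 31.4% higher and 32.7% lower). In shr 2 were higher and 2 lower than in Col-0 (52.7%, 25.8% higher and 26.9% lower). At 0 h, 2 were higher in cat2shr than in cat2 (34.9% of all genes called, 17.2% higher and 17.8% lower). In cat2 3 were higher than in Col-0 (23.3%, 11.5% higher and 11.8% lower), and in shr 7 were higher than in Col-0 (45.3%, 21.3% higher and 24.1% lower). At 0 h 0 of the 10 were lower in any of these. All 7 genes called at 24 h between cat2shr and cat2 had libraries that did not overlap between the groups, and so did the 7 called between cat2 and Col-0. At 0 h, 4 of the 7 genes called between shr and Col-0 did. The share of all called genes without such overlap was not computed, so these counts are not read as a trait of the 10 genes. The comparisons of one time share groups. The cat2 libraries stand in cat2shr against cat2 and in cat2 against Col-0, and the Col-0 libraries in cat2 and in shr against Col-0.

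**Figure D4:**
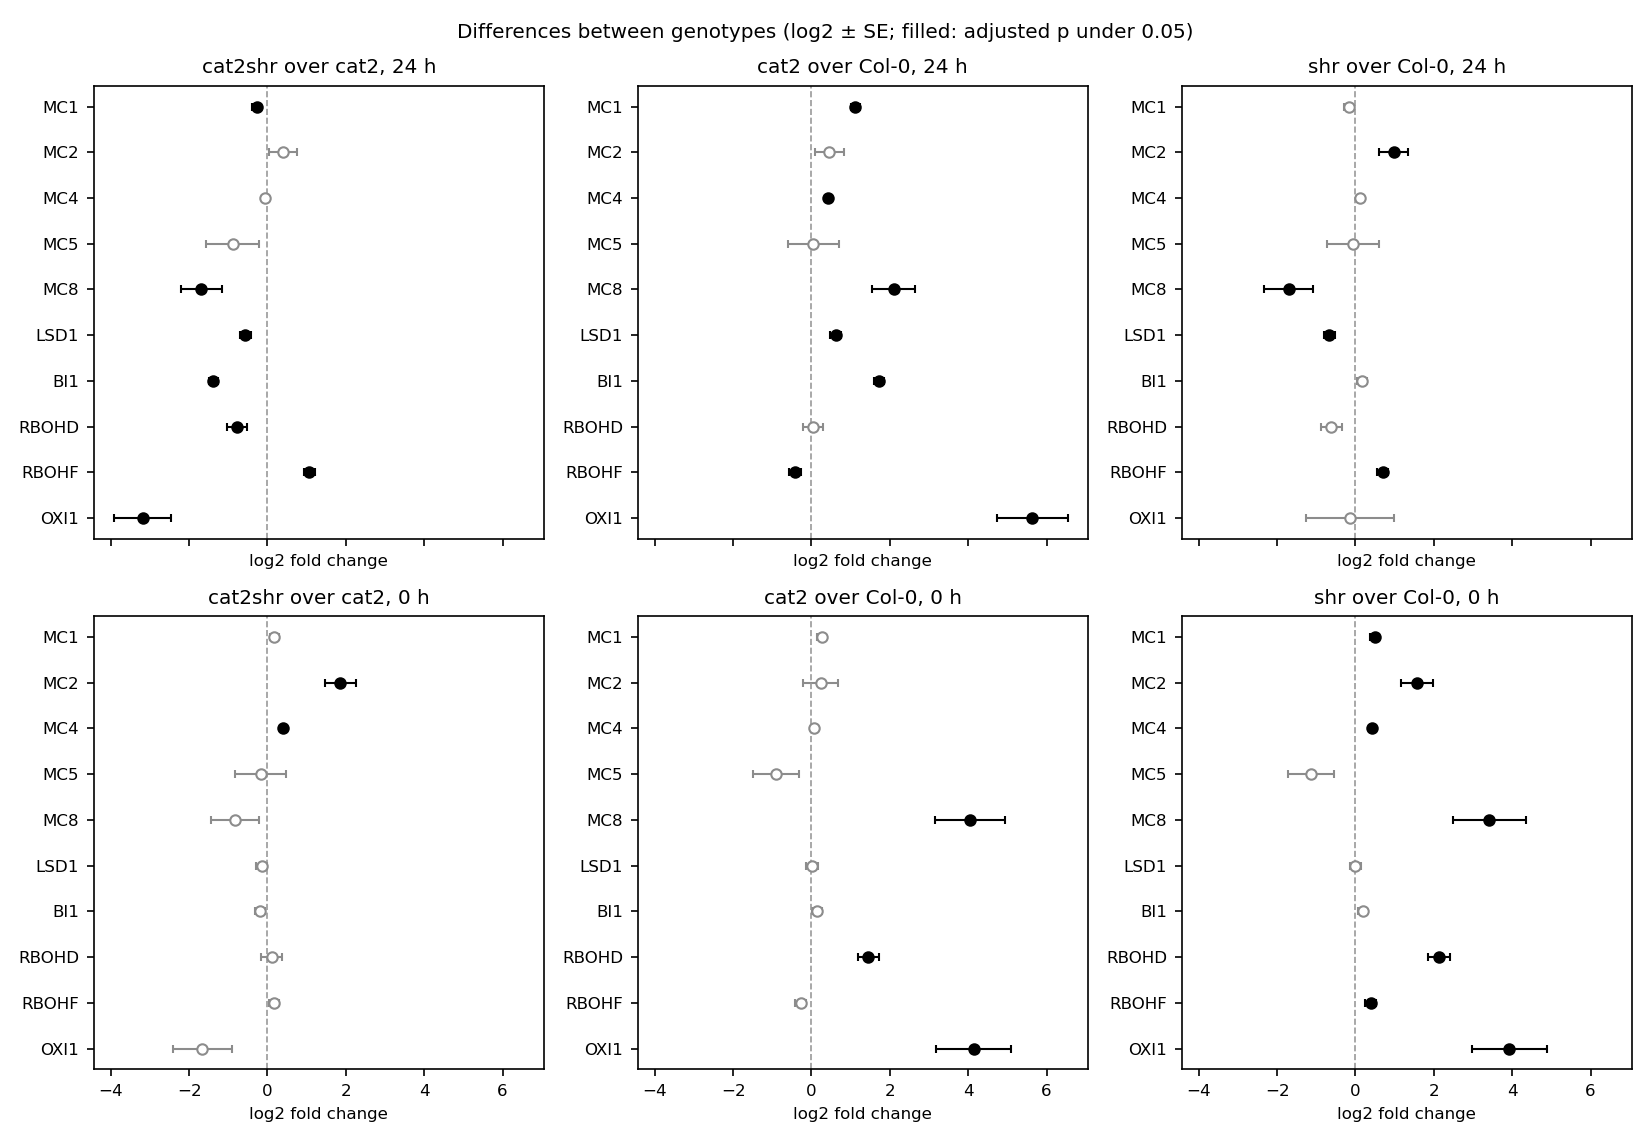
Log2 fold change between genotypes for the 10 genes (horizontal axis, bars are SE), with 24 h in the upper row and 0 h in the lower row. At 24 h, filled points (adjusted p under 0.05) for OXI1, BI1, MC8, LSD1 and MC1 lie below 0 for cat2shr over cat2 and above 0 for cat2 over Col-0, and RBOHF lies on the other side in both.

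The next tests asked whether the stress responses themselves differed. The response of cat2shr differed from that of cat2 in 5 of the 10 genes (30.9% of all genes tested, 15.6% higher and 15.4% lower): RBOHF, above, had the higher response in cat2shr, and MC1, MC2, MC4 and BI1 the lower. For MC4 the difference was log2 -0.46 (SE 0.10, adjusted p = 0.0023), and it was log2 -0.45 for MC1 (SE 0.16, adjusted p = 0.0324) and log2 -1.46 for MC2 (SE 0.53, adjusted p = 0.0413). The MC2 value was log2 -0.98 (adjusted p = 0.158) without cat2shr 0 h replicate 1, the library with 4.86 CPM. Its call was also lost without cat2 0 h replicates 1 or 3, cat2 24 h replicate 2, or cat2shr 24 h replicates 2 or 3 (log2 -1.37 to -1.04). That of MC1 held in 2 of 12, those without cat2 24 h replicate 3 or cat2shr 24 h replicate 1, and its adjusted p reached 0.11 in the others.

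Set against shr, the response of cat2shr was higher in MC1, MC8, LSD1 and OXI1, 4 of the 10 genes (35.3% of all genes tested, 17.5% higher and 17.8% lower). For LSD1 the difference was log2 0.84 (SE 0.20, adjusted p = 0.00377), or log2 1.01 without shr 0 h replicate 1, and for MC8 log2 2.30 (SE 0.88, adjusted p = 0.0486). The MC8 call held in 2 of 12 fits without 1 library, those without shr 0 h replicate 1 (log2 2.73) or cat2shr 0 h replicate 2, and over the 12 the value ranged from log2 1.75 to 2.85. The response of cat2 differed from that of Col-0 in 5 genes (38.2%, 18.8% higher and 19.4% lower), higher in MC1, MC4, LSD1 and BI1 and lower in RBOHD. The calls of MC4 (log2 0.34 ± 0.10, adjusted p = 0.0136) and LSD1 (log2 0.60 ± 0.20, adjusted p = 0.0248) held in 4 and 2 of 12 fits without 1 library, with values from log2 0.19 to 0.42 and from log2 0.42 to 0.64. The MC4 call was lost without any 1 of the 0 h libraries of either genotype or Col-0 24 h replicates 2 or 3, and the LSD1 call was kept only without cat2 24 h replicates 1 or 3. The response of shr differed from that of Col-0 in 5 genes (25.7%, 12.6% higher and 13.1% lower), and was lower in all 5. Besides RBOHD and MC8 these were MC1 (log2 -0.66 ± 0.16, adjusted p = 0.00507), LSD1 (log2 -0.66 ± 0.20, adjusted p = 0.0226) and MC4 (log2 -0.30 ± 0.10, adjusted p = 0.0406). The LSD1 call was lost without shr 0 h replicates 2 or 3 or shr 24 h replicates 1 or 2 (log2 -0.64 to -0.57), and without shr 0 h replicate 1 its value was log2 -0.90. The MC4 call was lost without Col-0 0 h replicates 1 or 2, shr 0 h replicate 3, Col-0 24 h replicate 1 or shr 24 h replicate 2 (log2 -0.32 to -0.25). The three-way interaction, which asks whether losing SHR changed the response by the same amount with and without CAT2, was called in 2 genes (13.7%, 6.84% higher and 6.9% lower): BI1, above, and RBOHD (log2 1.86 ± 0.53, adjusted p = 0.0258, or log2 1.44 without shr 0 h replicate 2).

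**Figure D5:**
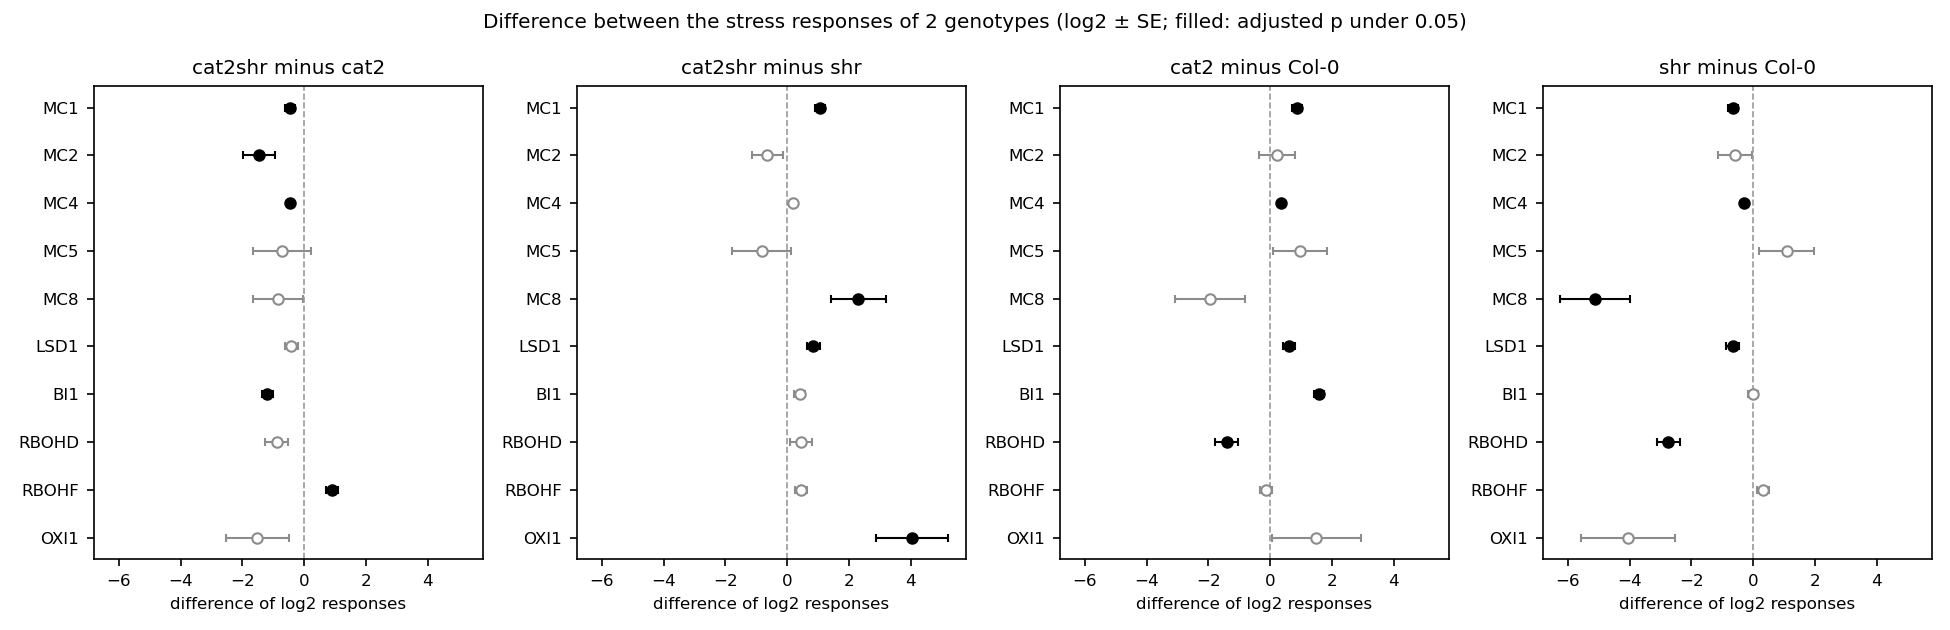
Difference between the stress responses of pairs of genotypes for the 10 genes, in log2 units (horizontal axis, bars are SE). Filled points have an adjusted p under 0.05: 5 for cat2shr minus cat2, 4 for cat2shr minus shr, and 5 each for cat2 minus Col-0 and shr minus Col-0, where all 5 lie below 0.

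Shares of all genes tested belong beside the counts here and in the lists below. Under stress, 32.7% were called higher and 31.7% lower in cat2shr, and 38.7% and 36.3% in cat2. In shr the shares were 20.4% and 20.9%, and in Col-0 29.7% and 29.6%. At 24 h they were 27% and 28.1% for cat2shr against cat2, and 31.4% and 32.7% for cat2 against Col-0. No list was tested as a set. Among 11 kinases and calcium sensors known to act on RBOHD or RBOHF, all 11 were tested. Under stress 6 rose and 2 fell in cat2shr, 8 rose and 1 fell in cat2, 1 rose and 2 fell in shr, and 4 rose and 4 fell in Col-0. In cat2 the calcium-dependent kinase CPK11 rose by log2 2.39 (SE 0.18), the immune receptor kinase partner BIK1 by log2 1.98 (SE 0.20) and the calcium-dependent kinase CPK4 by log2 0.95 (SE 0.09). At 24 h, 3 were higher and 6 lower in cat2shr than in cat2: the receptor-like kinase CRK2 differed by log2 -1.20 (SE 0.16) and CPK4 by log2 -1.02 (SE 0.09), while the calcium sensor CBL1 was higher by log2 1.28 (SE 0.16). Between cat2 and Col-0 at 24 h, 9 were higher and 1 lower.

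Of 9 kinases placed around OXI1, 1 rose and 4 fell under stress in cat2shr, 3 rose and 4 fell in cat2, 1 rose and 3 fell in shr, and 3 rose and 5 fell in Col-0. The mitogen-activated kinase MPK3 rose in cat2 (log2 0.76 ± 0.15) and Col-0 (log2 0.92 ± 0.15) and fell in cat2shr (log2 -0.39 ± 0.15). It was lower in cat2shr than in cat2 at 24 h by log2 -1.21 (SE 0.15). MPK6 rose in cat2shr by log2 0.65, in cat2 by log2 0.77, in shr by log2 0.23 and in Col-0 by log2 0.42 (SE 0.07 each).

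Among 6 relatives and partners of LSD1, 1 rose and 2 fell under stress in cat2shr, 2 rose and 2 fell in cat2, 0 rose and 2 fell in shr, and 2 rose and 1 fell in Col-0. GILP, a membrane protein that interacts with LSD1, rose by log2 1.47 in cat2 (SE 0.19). EDS1 and PAD4, lipase-like proteins of immune signalling that lsd1 lesions need, fell in cat2shr by log2 -0.80 (SE 0.16) and log2 -0.91 (SE 0.25). At 24 h EDS1 was lower in cat2shr than in cat2 by log2 -1.30 (SE 0.16). For LOL1, a relative of LSD1 that promotes cell death, shr differed from Col-0 at 24 h by log2 -1.92 (SE 0.25).

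Of 10 relatives of BI1 and BAG proteins, which bind chaperones, 7 were tested. Under stress 1 rose and 1 fell in cat2shr, 4 rose and 0 fell in cat2, 0 rose and 2 fell in shr, and 2 rose and 3 fell in Col-0. LFG4 rose by log2 2.20 in cat2 (SE 0.36) and LFG2 by log2 1.76 (SE 0.11), and LFG4 fell by log2 -1.59 in Col-0 (SE 0.44). At 24 h, 0 were higher and 5 lower in cat2shr than in cat2, including LFG4 (log2 -3.46 ± 0.40) and BAG6 (log2 -1.49 ± 0.18). As for BI1 itself, 5 were higher and 0 lower in cat2 than in wild-type shoots at 24 h.

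Of the 4 other metacaspases, 3 were tested. MC3 rose in cat2shr (log2 1.36 ± 0.08), cat2 (log2 1.04 ± 0.08) and Col-0 (log2 0.75 ± 0.08), and the difference of shr from Col-0 at 24 h was log2 -1.20 (SE 0.08). MC9, which acts in the clearing of dead xylem cells, fell in all 4 genotypes, by log2 -0.97 in cat2shr, -2.01 in cat2, -1.01 in shr and -1.39 in Col-0. Of 7 metacaspase inhibitor and substrate genes 5 were tested, and PROPEP1, the precursor of the Pep1 peptide, fell in all 4 genotypes, by log2 -1.96 in cat2shr, -1.74 in cat2, -1.08 in shr and -1.22 in Col-0.

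Of 8 markers of developmental cell death, which include MC9, 7 were tested. Under stress 1 rose and 3 fell in cat2shr, 1 rose and 6 fell in cat2, 1 rose and 4 fell in shr, and 0 rose and 6 fell in Col-0. The nuclease BFN1 fell by log2 -1.11 in cat2shr, -1.36 in cat2, -1.03 in shr and -0.98 in Col-0 (SE 0.24 to 0.25). At 24 h, 4 were higher and 0 lower in cat2shr than in cat2. The summed xylem markers, lowest in stressed cat2 as given above, moved in the same direction as this list there, and their part was not tested.

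Of 4 vacuolar processing enzymes, proteases of the vacuole, 3 were tested, and BETA-VPE was higher in cat2shr than in cat2 (log2 2.15 ± 0.32) and in shr than in Col-0 (log2 2.57 ± 0.32) at 24 h. The others went the other way where called at 24 h. GAMMA-VPE, more abundant at 140 CPM in shr and 192 CPM in Col-0, was lower in shr (log2 -0.46 ± 0.15). ALPHA-VPE was lower in cat2shr than in cat2 (log2 -1.13 ± 0.39). At 24 h GAMMA-VPE was not called between cat2shr and cat2, nor ALPHA-VPE between shr and Col-0. At 0 h GAMMA-VPE was instead higher in shr than in Col-0 (log2 0.44 ± 0.15) and in cat2shr than in cat2 (log2 0.45 ± 0.15). Of 8 genes whose loss gives lesions, 7 were tested. Under stress 3 rose and 3 fell in cat2shr and in cat2, 2 rose and 2 fell in shr, and 2 rose and 4 fell in Col-0. ACD2, which breaks down chlorophyll products, fell by log2 -0.52 in cat2shr, -1.23 in cat2, -0.26 in shr and -0.43 in Col-0 (SE 0.07 each). Both singlet oxygen signalling genes tested, EX1 and EX2, were lower in shr than in wild-type shoots at 24 h (log2 -0.58 and -0.84). Both were also lower than in wild-type shoots in shr at 0 h (log2 -0.41 and -0.38) and in cat2 at 24 h (log2 -0.28 and -0.29).

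By the rule of highest Pearson correlation of mean log2 CPM over the 8 groups, the genes most like BI1 were AT5G48020 (r = 0.990), MBF1C (r = 0.985) and AT5G48570 (r = 0.980). Those most like OXI1 were ABCB4 (r = 0.979), AT2G38250 (r = 0.974) and GSTU9 (r = 0.970), and those most like MC8 were STZ (r = 0.986), EDA39 (r = 0.981) and BCB (r = 0.980). The closest genes to RBOHD reached only r = 0.889 (AT5G54710). These values come from 8 points that share libraries, among 14637 candidate genes, and are given as a description. Among the 10 genes the closest pairs were MC1 and MC8 (r = 0.852), MC1 and MC4 (r = 0.834), MC1 and LSD1 (r = 0.833) and MC2 and MC4 (r = 0.831), and LSD1 and RBOHF ran opposite (r = -0.799).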

How the data were processed

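Total RNA from shoots of 24 samples was made into stranded mRNA libraries, per the labels' protocols. The deposited values are raw read counts per gene, which the authors did not normalize. The submitters' processing notes name Trim Galore 0.3.3, TopHat2 2.1.0, featureCounts, Subread 1.4.6 and the TAIR10 build. How these tools were ordered and set, whether counting used strand, and which annotation was counted: not given in the sources used here.

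From the counts, edgeR 4.0.16 was run in R 4.3.3 with TMM scaling and its default low-count filter. One quasi-likelihood model held the 8 groups, and 15 contrasts were tested with Benjamini-Hochberg adjustment over 20347 genes. Levels are CPM, and the SE was taken as |log2 change| over √F. The genes and lists were chosen with earlier results of these data known. Counts for 6798 loci were 0 in every library. Gene lengths, overlaps and promoters came from RefSeq's TAIR10.1. The alternatives tried were other scalings, other filters, a replicate block, fits on only the groups compared, DESeq2 1.42.0, leaving out each library in turn, and leaving out replicate 1 of shr and cat2shr at 0 h. Named beside the 10 genes are from each list, per comparison, the called genes lowest in adjusted p (at most 3), with their values in other comparisons, and the 3 highest correlations for likeness among genes of at least 5 CPM. Low counts limit precision most for MC5, MC2 and MC8. The spread between libraries was largest for OXI1, with an edgeR dispersion of 0.534, against 0.264 for MC8, the next largest.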

Additional observations from a re-analysis of the deposited data

Results flagged for a closer look

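Each result here was singled out because a test of the difference itself found that the stress response differed between genotypes (edgeR quasi-likelihood test, Benjamini-Hochberg adjusted p under 0.05). For cat2shr minus cat2 the differences in log2 units were 0.91 for RBOHF, -0.45 for MC1, -1.46 for MC2, -0.46 for MC4 and -1.19 for BI1. For cat2shr minus shr they were 1.07 for MC1, 2.30 for MC8, 0.84 for LSD1, 4.04 for OXI1 and 7.86 for RBOHC (adjusted p = 0.000279). For cat2 minus Col-0 they were 0.86 for MC1, 0.34 for MC4, 0.60 for LSD1, 1.58 for BI1 and -1.41 for RBOHD. For shr minus Col-0 they were -0.66 for MC1, -0.30 for MC4, -5.12 for MC8, -0.66 for LSD1, -2.75 for RBOHD and -7.14 for RBOHC (adjusted p = 0.0315). The RBOHC value for shr minus Col-0 was lost in 6 fits without 1 library, among them the one without Col-0 24 h replicate 2 (log2 -5.73, adjusted p = 0.266), and its value for cat2shr minus shr was log2 6.36 without shr 0 h replicate 2. In the three-way interaction the values were -1.18 for BI1 and 1.86 for RBOHD.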

How the results depend on the processing

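None of the 73 called results of the 10 genes (of 150 tested) changed sign in any alternative, and 54 were called in every one that tested them, while 19 were lost in at least 1. Of the 77 not called, 21 were called in at least 1. Scaled by library size only, the 10 genes gave 6 calls for cat2 against Col-0 at 0 h in place of 3, and 3 in place of 5 for cat2 minus Col-0, which also gave 3 with no filter. With no filter cat2shr minus cat2 gave 3 in place of 5, and with a 5 CPM filter cat2shr against cat2 at 0 h gave 1 in place of 2. MC2, at most 4.86 CPM in any library, did not pass that filter and was not tested under it. Over all genes, cat2shr against cat2 at 0 h gave 4712 calls in a fit on its groups alone, against 7105. Leaving out 1 library gave 2988 to 4163 genes for cat2 against Col-0 at 0 h (4741 with all), and for the 10 genes 2 to 4 for shr against Col-0 at 24 h, 3 to 5 for cat2 minus Col-0, 3 to 6 for shr minus Col-0 and 3 to 5 for cat2shr minus cat2.

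The results that turned sign were not called with all libraries and the main settings. LSD1 for shr against Col-0 at 0 h was log2 0.020 with RLE scaling, 0.086 by library size, 0.032 with no filter, 0.044 on its groups alone, 0.020 in DESeq2 and 0.26 without replicate 1 of shr and cat2shr at 0 h. By library size, stress gave MC4 -0.041 in cat2shr, MC5 -0.078 and RBOHD -0.039 in cat2 and MC4 0.013 in shr. The same scaling gave MC5 0.066 and OXI1 0.0086 for shr against Col-0 at 24 h, BI1 0.045 for shr minus Col-0 and MC4 -0.055 for cat2shr minus shr. With no filter MC5 was -0.035 under stress in cat2 and -0.019 for cat2 against Col-0 at 24 h, where RBOHD was -0.025. A 5 CPM filter gave BI1 0.0061 for shr minus Col-0. Without both replicates 1, MC2 was 0.26 under stress in cat2shr and MC5 0.06 for cat2shr against cat2 at 0 h. The cause was not tested.

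Without 1 library, ranges that crossed 0 were LSD1 -0.075 to 0.26 for shr against Col-0 at 0 h, MC2 -0.19 to 0.74 and OXI1 -0.88 to 1.94 for cat2 minus Col-0, and RBOHD -0.071 to 0.20, MC5 -0.37 to 0.39 under stress in cat2. At 0 h they were MC5 -0.50 to 0.25 and RBOHD -0.024 to 0.22 for cat2shr against cat2, and MC2 -0.34 to 0.51 and LSD1 -0.00996 to 0.13 for cat2 against Col-0. They were MC5 -0.67 to 1.13 under stress in shr, MC2 -0.36 to 0.26 in cat2shr, RBOHD -0.085 to 0.61 for cat2shr minus shr and BI1 -0.074 to 0.024 for shr minus Col-0. At 24 h they were MC5 -0.87 to 0.40 and OXI1 -0.39 to 0.45 for shr against Col-0, MC5 -0.35 to 0.44 and RBOHD -0.18 to 0.17 for cat2 against Col-0, and MC4 -0.15 to 0.0090 for cat2shr against cat2.

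Library size alone put the median of all genes at log2 -0.13 for stress in cat2shr, 0.12 for cat2 against Col-0 at 0 h, 0.13 for shr against Col-0 at 24 h, -0.17 for cat2 minus Col-0 and -0.24 for cat2shr minus shr. The share of calls that were higher was then 39.99% against 50.8% with TMM for stress in cat2shr, 65.2% against 49.4% in shr, 83.1% against 49.5% for cat2 against Col-0 at 0 h, 60.6% against 46.9% for shr against Col-0 at 0 h, 64.4% against 49.0% at 24 h, 32.3% against 49.2% for cat2 minus Col-0, 23.2% against 49.5% for cat2shr minus shr and 37.0% against 49.8% for the three-way interaction. Same-numbered libraries of 30 pairs correlated from -0.132 to 0.347, with 13 of them over 0.1. Of the 30, 17 correlated best with their own number, and in 0 of 10 comparisons were all pairs over 0.1. The main model did not take the numbers as pairs. These values do not settle whether replicates were paired, as the pairs share libraries. With a replicate block 2 calls were lost, MC1 under stress in shr (log2 -0.28, adjusted p = 0.0564) and MC2 for cat2shr minus cat2 (log2 -1.46, adjusted p = 0.0522), and 5 were gained. DESeq2 gave no adjusted p for MC5 in 2 results. The fit on only the groups compared was not run for the three-way interaction, which uses all 8.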
